A study of Mus musculus with 9 samples.

Results

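The genes of the ubiquitin-proteasome system were compared in the livers of FED, IF and FMD-fed mice. Members were the genes whose symbol starts with Psma to Psmg (proteasome subunits and their partners), Ube2 (ubiquitin-conjugating enzymes), Cul (cullins), Fbxo (F-box proteins), Rnf (RING finger proteins) or Usp (ubiquitin-specific proteases), with a mean TPM (transcript abundance normalised to transcript length and library total) of at least 1 over the 9 libraries. Of the 5608 genes listed, 105 matched by symbol and 98 reached this limit. Usp37, at a mean TPM of 0.98 in FED livers, 1.08 in IF livers and 1.59 in FMD livers, lay just inside the limit, as did Usp53 and Rnf144a. Usp31 (0.95 TPM over all libraries), Fbxo32 (0.76) and Ube2c (0.54) lay just outside it, and the other members left out were Usp17la, listed at 0 in every library, Rnf157, Fbxo17 and Usp27x.

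All mice were wild-type C57BL/6J, and liver RNA of 3 mice per regimen was sequenced. FED mice had standard diet ad libitum. IF mice were food-deprived for 24 h on day 1 and on day 4. FMD mice received the fasting-mimicking diet on days 2 to 4, with 50% of the usual calories on the first of these days and 10% on each of the other two, and all mice were sacrificed on day 5. The libraries are replicates 1, 2 and 3 of FED and IF and replicates 1, 2 and 4 of FMD. Age and sex were not given in the sources used here. Bulk liver RNA cannot tell apart fewer cells of a type and less RNA per cell.

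Proteins are marked for degradation by chains of ubiquitin, which is activated by an E1 enzyme, passed to an E2 conjugating enzyme and attached with the help of an E3 ligase. Cullins are the scaffolds of a large class of E3 ligases, F-box proteins bring substrates to some of them, many RING finger proteins are ligases themselves, and ubiquitin-specific proteases take ubiquitin off again. The 26S proteasome consists of the 20S core, a barrel of alpha and beta subunits with the catalytic sites on the inside, and the 19S cap, whose ATPases unfold the substrate. Interferon signalling induces the alternative catalytic subunits Psmb8 and Psmb9, which form the immunoproteasome, and Psmb9 takes the place of Psmb6. In liver the system shares protein turnover with autophagy.

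The upstream sequences of Psmb6, Psmb8 and Psmb9 are shown because the ratio of these catalytic subunits to each other separated the FED livers from both diet groups. Each line gives the 250 bases before the transcription start, 5′ to 3′ on the gene's strand, from RefSeq on GRCm38.p6, a build older than the mm39 named in the submitters' processing notes. Capitals mark a match to TGACNNNGC, the core of the antioxidant response element.
Psmb6 (chr11:70525107-70525356, plus strand): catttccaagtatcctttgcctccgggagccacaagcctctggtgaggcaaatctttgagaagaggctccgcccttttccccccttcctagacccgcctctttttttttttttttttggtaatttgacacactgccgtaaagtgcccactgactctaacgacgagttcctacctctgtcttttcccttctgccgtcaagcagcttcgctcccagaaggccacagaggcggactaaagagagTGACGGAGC
Psmb8 (chr17:34197945-34198194, plus strand): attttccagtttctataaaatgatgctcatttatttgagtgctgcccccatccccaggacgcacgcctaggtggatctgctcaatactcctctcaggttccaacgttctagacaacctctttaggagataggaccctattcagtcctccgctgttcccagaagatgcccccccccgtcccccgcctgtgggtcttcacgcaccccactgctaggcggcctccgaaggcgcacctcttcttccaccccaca
Psmb9 (chr17:34187331-34187580, minus strand): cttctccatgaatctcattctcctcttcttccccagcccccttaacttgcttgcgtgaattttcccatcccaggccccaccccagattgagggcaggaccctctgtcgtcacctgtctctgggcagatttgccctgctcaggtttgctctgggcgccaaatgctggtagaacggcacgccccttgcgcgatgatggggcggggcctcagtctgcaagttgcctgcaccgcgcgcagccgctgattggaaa
Psmb6 has the match in the last bases before its start. Neither Psmb8 nor Psmb9 holds TGACNNNGC on either strand of these windows, nor a pattern of the interferon response type, which was searched as GAAA, any 2 bases and GAAA. TGACNNNGC was found upstream of 3 of the 13 constitutive core and cap subunits with a promoter entry (Psmb6, Psmc6 and Psmd12), of 9 of the 81 members with one (11.1%), and of 13.8% of the tested genes with one. The core and cap subunits were taken by symbol, and the 13 include Psmd10, an assembly chaperone of the cap. The interferon response pattern was found in 2.47% of the members, among them Psmd4, and in 3.04% of the tested genes. The E-box CACGTG was held by 7.41% of the members against 10.8%, and the D-box TTATGNAA by 0 of 81 against 2.23%. Such a match describes letters and is not evidence of a bound factor.

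The deposited TPM of the genes listed were higher in both diet groups as a whole. Their sum was 26.3 to 29.3% of the library total in FED, 32.9 to 34.9% in IF and 34.95 to 43.0% in FMD libraries, and the 4665 genes tested had a median log2 fold change of 0.24 in IF and of 0.48 in FMD relative to FED, and of 0.24 in FMD relative to IF. Fold changes are on the scale of log2(TPM + 1), and values called scaled come from libraries that were each divided by a size factor (median ratio of its genes to their geometric means), so that the median gene stays near 0. A member is called higher or lower at a Benjamini-Hochberg adjusted p under 0.05 (limma) and a fold change over 1.5 in either direction, the limit on the fold change. Both comparisons with FED use the same 3 FED libraries. For counts at an unadjusted p under 0.05, the share over all tested genes was not computed, so these counts have no background beside them.

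In FMD vs FED livers, 41 of 98 members were called higher and 1 was called lower, where 35.5% and 1.59% of all tested genes were. After scaling, 5 members were called higher and 6 lower, where 5.49% and 5.64% of the genes were. The median member had a log2 fold change of 0.54, and 80 members had every FMD library above every FED library, as did 68.0% of the tested genes. As shares of the members, 41.8% were called higher and 81.6% stood higher without overlap. After scaling, 5.1% were called higher, close to the share of the table, and 22.4% stood higher without overlap, against 18.5% of the genes. The members are described by role in the following. FMD replicate 1 was the highest of the 9 libraries for 67 members and for 65.8% of the tested genes. Without it, 25 members were called higher and 2 lower, with 23.1% and 1.91% of the genes called. The lower call was lost without FED replicate 1 or 3 or FMD replicate 4. After scaling, FMD replicate 1 was the highest for 15 members and for 21.2% of the tested genes. It was the lowest for 28 members, a count with no share over all tested genes beside it.

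IF vs FED livers had 4 members called higher and 2 lower, with 10.3% and 1.59% of the genes called. After scaling there were 1 higher and 3 lower, against 3.69% and 3.45% of the genes. Both lower calls on deposited TPM were lost without FED replicate 1, and 1 of them without FED replicate 3 or any 1 IF library. The median member had a log2 fold change of 0.26. In all, 67 members (68.4%) were higher in every IF than in every FED library, against 53.8% of the genes. Of the called members, 3 were higher and 1 was lower in both comparisons with FED. FMD vs IF livers had 2 members called higher and 0 lower by limma, with 4.67% and 0.472% of the genes called, and 42 members had an unadjusted p under 0.05. After scaling there were 1 higher and 0 lower, with 1.11% of the genes called in each direction, and 17 members had an unadjusted p under 0.05.

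The 20S alpha subunits form the outer rings of the core. Psma7 stood at 126, 125 and 131 TPM in FED, 184, 194 and 156 in IF and 289, 257 and 214 in FMD replicates 1, 2 and 4. The 3 groups did not overlap, and each FMD library lay above each IF library. Psma7 rose in FMD vs FED livers, with a log2 fold change of 0.97 ± 0.14 (SE) and an adjusted p of 0.00040 (limma), and after scaling the value was 0.42 (adjusted p = 0.013), below the fold change limit. Psma6 gave 151, 146 and 157 TPM in FED, 215, 202 and 192 in IF and 295, 283 and 247 in FMD livers. It had the same order without overlap and a log2 fold change of 0.85 ± 0.11 (SE, adjusted p = 0.00029), or 0.30 after scaling. Psma5 was the other alpha subunit called higher, while Psma2 and Psma3 stayed under the fold change limit. In IF vs FED livers 0 of the 5 alpha subunits listed were called by limma, and 3 had an unadjusted p under 0.05. Psma7 was at 0.47 ± 0.14 (SE, adjusted p = 0.028), or 0.20 scaled (adjusted p = 0.21).

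Among the constitutive beta subunits, Psmb6 and Psmb7 carry catalytic sites. Psmb6 (NCBI gene 19175) measured 174, 154 and 171 TPM in FED, 198, 196 and 177 in IF and 276, 250 and 262 in FMD livers. All FMD libraries lay above all others, and the IF libraries lay just above the FED ones. Its log2 fold change was 0.65 ± 0.11 (SE, adjusted p = 0.00092) in FMD vs FED and 0.46 ± 0.11 (SE, adjusted p = 0.035) in FMD vs IF livers, the latter under the fold change limit and at 0.19 after scaling (adjusted p = 0.30). Psmb7, the most abundant member in FED livers, stood at 227, 229 and 229 TPM in FED, 283, 269 and 238 in IF and 392, 350 and 343 in FMD livers, with 0.66 ± 0.11 (SE, adjusted p = 0.0010) in FMD vs FED. Relative to the general shift of the table both were near 0, with scaled log2 fold changes of 0.10 for Psmb6 (adjusted p = 0.52) and 0.11 for Psmb7 (adjusted p = 0.45). Psmb1, a structural subunit of the same ring, did not pass the fold change limit. Psmb5 and Psmb10 were not analysed here.

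The immunoproteasome subunits were lower. Psmb9 (NCBI gene 16912) measured 29.2, 23.1 and 31.3 TPM in FED, 12.6, 13.98 and 13.0 in IF, and 19.6, 19.7 and 7.82 in FMD replicates 1, 2 and 4. No diet library reached the lowest FED library, and FMD replicate 4 was the lowest of all. Psmb9 fell in both diets, by 1.01 ± 0.28 on the log2 scale in IF vs FED (SE, adjusted p = 0.025) and by 0.88 ± 0.28 in FMD vs FED (SE, adjusted p = 0.018). After scaling, the log2 fold changes were -1.28 (adjusted p = 0.0090) and -1.41 (adjusted p = 0.0039). Without scaling the calls depended on single libraries. For IF the adjusted p was 0.085 without FED replicate 1 or 3 and 0.083, 0.072 and 0.067 without IF replicates 1, 2 and 3. For FMD it was 0.056 without FED replicate 1 and 0.060 without FED replicate 3, and without FMD replicate 4 the log2 fold change was -0.47. All scaled fits with 1 library left out kept both calls.

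Psmb8 (NCBI gene 16913) gave 37.7, 31.7 and 29.4 TPM in FED, 19.5, 22.8 and 18.4 in IF and 28.0, 21.8 and 20.1 in FMD livers. All diet libraries were below all FED libraries, although FMD replicate 1 came close to the lowest of them. Psmb8 fell in IF vs FED livers by 0.68 ± 0.15 on the log2 scale (SE, adjusted p = 0.011), a call lost without FED replicate 1 (-0.58, adjusted p = 0.053). In FMD vs FED livers its log2 fold change of -0.49 ± 0.15 (SE, adjusted p = 0.017) was short of the limit, and it passed without FMD replicate 1 (-0.62). After scaling, Psmb8 was called lower in both, at -0.95 (adjusted p = 0.0010) and -1.02 (adjusted p = 0.00038), also with any 1 library left out. The difference between FMD and IF was not called for either subunit, at adjusted p of at least 0.37 (limma).

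A ratio within a library does not depend on scaling. Psmb9 was 16.8, 14.9 and 18.3% of Psmb6 in the FED livers, 6.37, 7.14 and 7.33% in IF and 7.11, 7.88 and 2.99% in FMD livers. Psmb8 was 21.7, 20.5 and 17.2% of Psmb6 in FED, 9.82, 11.7 and 10.3% in IF and 10.1, 8.71 and 7.67% in FMD livers. For both ratios every IF and FMD library stood below every FED library, while IF and FMD overlapped. Neither ratio was tested, and each shows an unequal change of its parts. Only that of Psmb9 sets a subunit against the one whose place it takes.

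**Figure D1:**
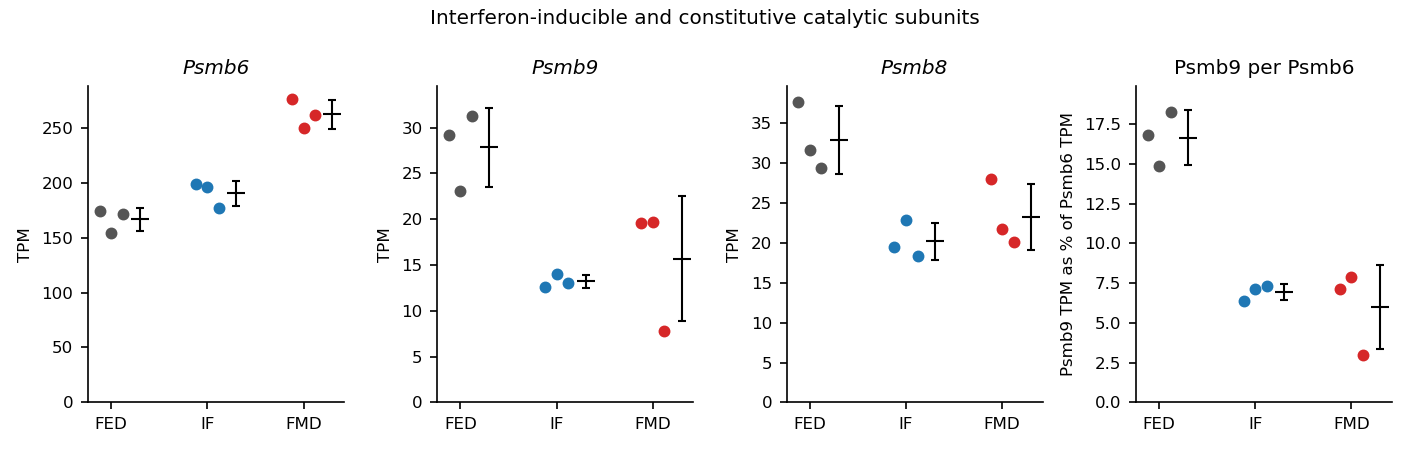
TPM of Psmb6, Psmb9 and Psmb8 and the ratio of Psmb9 to Psmb6 (in %) by group. Points are libraries in the order of their replicate numbers and the bars show mean ± SD (n = 3). All FMD libraries lie above the others for Psmb6, and all FED libraries lie above the others for Psmb9, Psmb8 and the ratio.

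Immunoproteasome subunits are abundant in leukocytes, and the table holds 1 of 7 markers for each of the immune lists. Cd74, of the leukocyte list, ranged from 34.7 to 65.9 TPM in FED, from 37.3 to 46.9 in IF and from 28.4 to 60.0 in FMD livers. Cd68, of the macrophage list, ranged from 6.35 to 10.4 TPM in FED, from 3.14 to 5.99 in IF and from 5.75 to 64.0 in FMD livers, with the highest value in FMD replicate 1. On the scaled values, on which the fall of Psmb8 and Psmb9 was larger, Cd74 had its log2 fold change at -0.55 in IF livers (adjusted p = 0.22) and at -0.72 in FMD livers (adjusted p = 0.094), with overlapping groups. Scaled Cd68 was at -0.95 in IF (adjusted p = 0.31), with all IF libraries below all FED libraries, and at 0.45 in FMD (adjusted p = 0.62). Neither marker was called. By library, Cd74 stood at 34.7, 63.0 and 65.9 TPM in FED and at 46.9, 37.3 and 46.35 in IF livers. In FMD replicates 1, 2 and 4 it stood at 58.3, 60.0 and 28.4 TPM. The part of these cells in the fall of Psmb8 and Psmb9 was not tested. The table holds 0 of 7 hepatocyte markers, so the tissue label was not checked with them, and none of the markers it holds was at 0 in all libraries.

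Psmd4, the ubiquitin receptor of the 19S cap, separated all 3 groups. Its libraries stood at 110, 105 and 110 TPM in FED, 173, 161 and 153 in IF and 268, 232 and 179 in FMD livers. Every IF library lay above FED and every FMD library above IF. Psmd4 rose in FMD vs FED livers by a log2 fold change of 1.04 ± 0.14 (SE, adjusted p = 0.00040), or 0.49 after scaling (adjusted p = 0.0076). In IF livers the value was 0.58 ± 0.14 (SE, adjusted p = 0.016), just under the limit, and it passed without IF replicate 3 (0.62). Scaled, it was 0.30.

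Psmd8 (NCBI gene 57296), another cap subunit, had the largest log2 fold change of the proteasome genes in FMD vs FED livers. It measured 105, 94.8 and 105 TPM in FED, 144, 141 and 119 in IF and 389, 209 and 163 in FMD replicates 1, 2 and 4. FMD replicate 1 was far above the other FMD libraries, yet all of these were above IF. The log2 fold change was 1.22 ± 0.25 (SE, adjusted p = 0.0029), and 0.86 without FMD replicate 1 (adjusted p = 0.00063). After scaling, Psmd8 was the only core or cap subunit called, at 0.67 (adjusted p = 0.030). The scaled call was lost without FMD replicate 1 (0.42) and without FED replicate 1, 2 or 3 (adjusted p of 0.075, 0.093 and 0.079).

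The ATPase Psmc6 rose from 60.1, 57.9 and 65.4 TPM in FED to 128, 111 and 96.0 in FMD livers, with IF at 81.8, 81.7 and 74.6. Psmc3 rose from 98.8, 93.6 and 103 TPM in FED to 191, 162 and 134 in FMD livers, with IF at 127, 115 and 103. The groups stood in the order FED, IF, FMD without overlap for both ATPases listed, although the lowest Psmc3 IF library barely exceeded FED. Their log2 fold changes in FMD vs FED were 0.85 ± 0.13 (SE, adjusted p = 0.00054) and 0.71 ± 0.14 (SE, adjusted p = 0.0024), and 0.30 (adjusted p = 0.029) and 0.16 (adjusted p = 0.27) after scaling. Psmc3 fell just short of the limit without FMD replicate 1 (0.58). Psmd1 (0.88), Psmd6 (0.77) and Psmd12 (0.73) were called higher as well, and Psmd10 was not. Their scaled values were 0.33 for Psmd1, 0.22 for Psmd6 and 0.19 for Psmd12, none of them called.

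Across the 16 genes taken by symbol as constitutive core and cap subunits, 12 were called higher in FMD vs FED livers and 0 lower. Of all tested genes, 35.5% were called higher. The 16 include Psmd10, an assembly chaperone of the cap, at 0.41 and at -0.105 after scaling, not called on either scale. All 16 had FMD libraries above all FED libraries, as did 68.0% of the genes. Their median log2 fold change was 0.72, against 0.48 for all genes tested. After scaling, 1 was called higher (6.25%, against 5.49% of the genes) and 14 were above the median of all genes. On this scale 9 stood without overlap (18.5% of the genes) and the median was 0.17. In IF vs FED livers 0 were called by limma, 9 had an unadjusted p under 0.05 and the median was 0.33, against 0.24 for all genes. All 16 were higher in IF without overlap, where 53.8% of the genes were. After scaling 7 of them were higher and 2 lower without overlap (23.2% and 23.0% of the genes), 1 had an unadjusted p under 0.05, and the median was 0.05. FMD vs IF gave 0 called by limma and 15 with an unadjusted p under 0.05, 5 of these with an adjusted p under 0.05, and 15 were without overlap (33.6% of the genes). On the scaled values 4 had an unadjusted p under 0.05 in FMD vs IF, and 0 an adjusted p under 0.05 (limma). The summed TPM of the 16 genes was 1647, 1590 and 1673 in FED, 2157, 2111 and 1899 in IF and 3296, 2768 and 2452 in FMD livers. As scaled values the sums were 2020, 1939 and 1983 in FED, 2096, 2069 and 1974 in IF, and 2308, 2423 and 2244 in FMD livers. The FMD libraries were above all others on both scales, whereas IF overlapped FED after scaling.

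**Figure D2:**
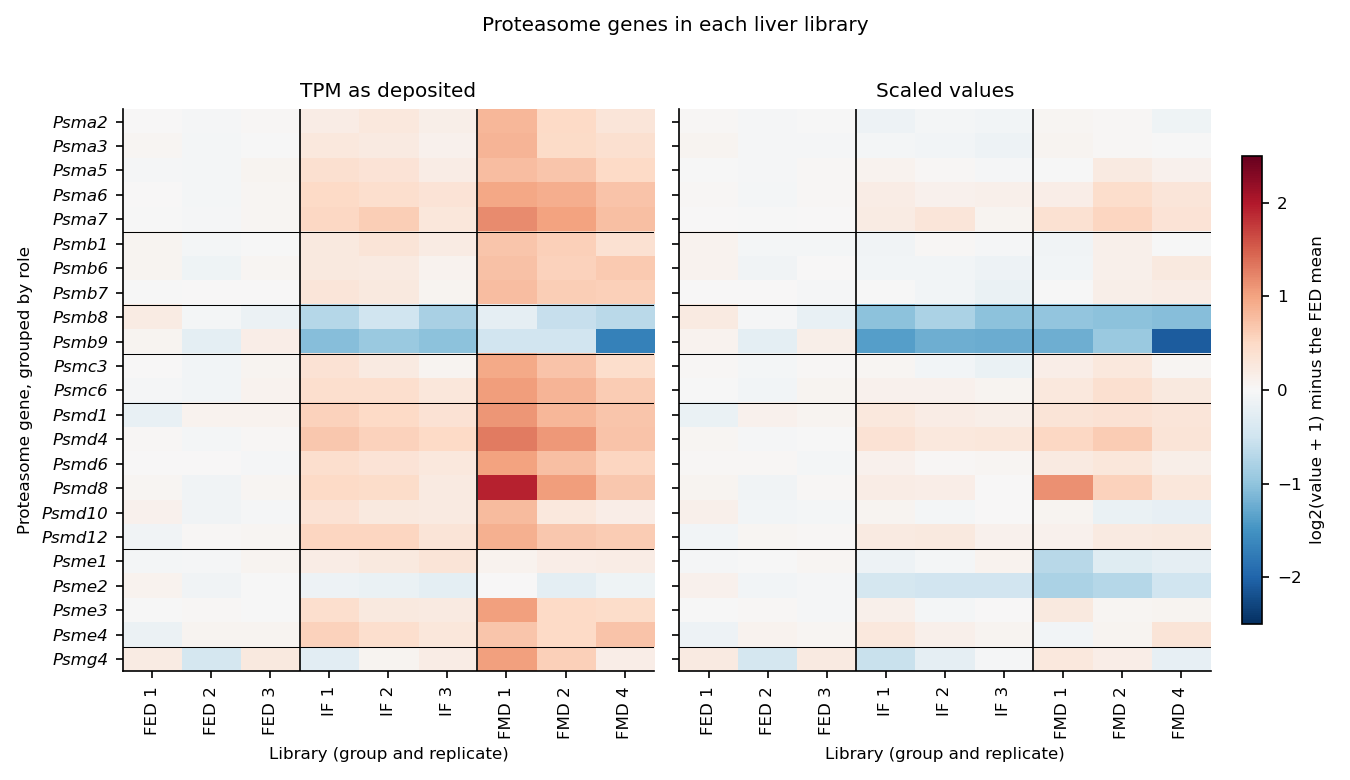
Each cell gives log2(value + 1) of a proteasome gene in a library minus the mean of the 3 FED libraries, for deposited TPM (left) and scaled values (right), with genes grouped by role. Most rows grow redder from FED to FMD on the left and pale on the right, Psmd8 stands out in FMD replicate 1, and Psmb8 and Psmb9 are blue in all diet libraries on both sides.

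The activators that dock onto the core differed among themselves. Psme1 and Psme2 form an activator that interferon induces together with the immunoproteasome. Psme2 stood at 152, 135 and 143 TPM in FED, 131, 128 and 120 in IF and 143, 120 and 133 in FMD livers. IF lay below FED, and FMD overlapped both. The log2 fold change in FMD vs FED was -0.12 ± 0.11 (SE, adjusted p = 0.34), while the scaled value of -0.67 (adjusted p = 0.0015) was called lower, also with any 1 library left out. In IF vs FED livers the scaled value was -0.46 (adjusted p = 0.014).

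Psme1 gave 112, 113 and 122 TPM in FED, 132, 137 and 144 in IF and 123, 129 and 131 in FMD livers, so that IF was the highest group. Its log2 fold change of 0.14 ± 0.10 (SE, adjusted p = 0.22) in FMD vs FED turned to -0.41 (adjusted p = 0.047) after scaling. Psme3, the subunit of the nuclear activator, measured 29.4, 30.2 and 29.7 TPM in FED, 40.4, 35.4 and 35.2 in IF and 61.5, 42.6 and 41.4 in FMD livers. It rose in FMD vs FED livers by 0.66 ± 0.15 on the log2 scale (SE, adjusted p = 0.0041), and by less than the limit without FMD replicate 1 (0.48). Psme4, the large single-chain activator, rose by 0.64 ± 0.12 (SE, adjusted p = 0.0019), and by 0.56 without FED replicate 1. Scaled values were 0.12 for Psme3 and 0.10 for Psme4, neither called. The TPM of Psme3 was 24.4 to 26.7% of that of Psme1 in FED, 24.5 to 30.7% in IF and 31.7 to 50.1% in FMD livers.

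Psmg4, an assembly chaperone, was 13.8, 8.49 and 14.4 TPM in FED, 9.73, 12.5 and 13.6 in IF and 25.2, 18.5 and 13.6 in FMD livers. FMD replicate 4 fell within the FED range, and the log2 fold change of 0.60 ± 0.24 (SE, adjusted p = 0.046) in FMD vs FED was lost without FED replicate 1 or 2, without any 1 IF library and without FMD replicate 1 or 2. The adjusted p then ran from 0.052 to 0.184, and the log2 fold change was 0.37 without FED replicate 2 and 0.38 without FMD replicate 1. On the scaled values it was 0.08.

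Of the 17 conjugating enzymes, 6 were called higher in FMD vs FED and 1 in IF vs FED livers. These shares of 35.3% and 5.88% stand beside 35.5% and 10.3% of all tested genes. After scaling 0 were called higher in FMD by limma, against 5.49% of all tested genes, with 2 higher at an unadjusted p under 0.05. In IF 1 was called higher (5.88%), against 3.69%. Ube2e2 (NCBI gene 218793), a ubiquitin E2, was the member with the largest log2 fold change in IF livers. It stood at 11.4, 9.69 and 11.6 TPM in FED, 28.1, 25.3 and 24.7 in IF and 21.1, 21.4 and 25.8 in FMD livers. Both diets lay far above FED and overlapped each other. Ube2e2 rose by 1.19 ± 0.12 on the log2 scale in IF vs FED (SE, adjusted p = 0.00026) and by 1.0 ± 0.12 in FMD vs FED (SE, adjusted p = 0.00023). After scaling it was still called in IF (0.93, adjusted p = 0.0040), whereas the FMD value of 0.48 (adjusted p = 0.043) was under the limit.

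Ube2k, which builds ubiquitin chains, and Ube2d3, which works with many ligases, rose in FMD vs FED livers with log2 fold changes of 0.71 ± 0.13 (SE, adjusted p = 0.0018) and 0.63 ± 0.14 (SE, adjusted p = 0.0032). Without FMD replicate 1 these were 0.58 and 0.50, under the limit, and scaled they were 0.19 and 0.09. Members of the Ube2d and Ube2e families are close in sequence, and how reads that fit several genes were counted is not given in the sources used here, so their split is uncertain.

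Ube2l6 conjugates the interferon-induced modifier ISG15. It measured 74.6, 54.0 and 64.8 TPM in FED, 44.8, 50.2 and 52.4 in IF and 59.6, 50.4 and 58.7 in FMD livers. IF lay below FED and FMD overlapped FED. The log2 fold changes were -0.38 ± 0.14 in IF (SE, adjusted p = 0.070) and -0.19 ± 0.14 in FMD (SE, adjusted p = 0.24), neither of them called. Scaled, they were -0.65 (adjusted p = 0.016) and -0.73 (adjusted p = 0.0068), both called lower. The scaled IF call was lost without FED replicate 1 (-0.54) or 3 (adjusted p = 0.056) and without IF replicate 1 (-0.57) or 2 (adjusted p = 0.061).

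Uba7, the E1 enzyme for ISG15, is no member by symbol and belongs to the list of activating enzymes. Its values were 3.81, 2.5 and 3.8 TPM in FED, 1.42, 1.36 and 1.19 in IF and 1.97, 1.67 and 1.02 in FMD livers. All diet libraries were below all FED libraries. Uba7 fell by 0.90 ± 0.17 in IF (SE, adjusted p = 0.0056) and by 0.78 ± 0.17 in FMD on the log2 scale (SE, adjusted p = 0.0039), and scaled values were -1.12 and -1.16. These calls were kept with any 1 library left out, on both scales. Isg15 and Usp18, of the same pathway, were not analysed here.

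**Figure D3:**
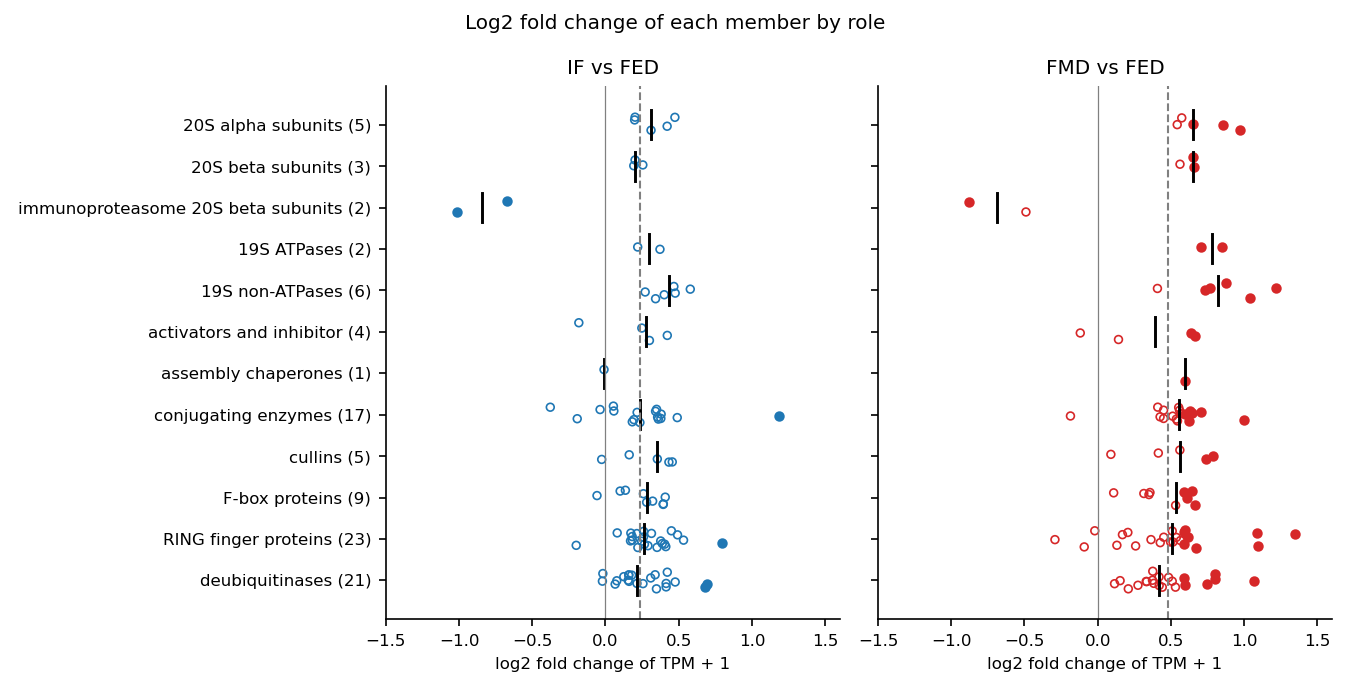
Log2 fold change of log2(TPM + 1) for each of the 98 members, by role, in IF vs FED (left) and FMD vs FED (right). Filled points were called, bars are the median of the role and the dashed line is the median of all genes tested (0.24 and 0.48). The immunoproteasome subunits lie left of 0 in both panels, and the core and cap subunits lie right of the dashed line or near it in FMD.

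The cullins and F-box proteins build modular ligases. Of 5 cullins, Cul7 and Cul4b were called higher in FMD vs FED livers (40.0%, against 35.5% of all tested genes) and 0 in IF, where limma gave 3 at an unadjusted p under 0.05. Cul7 stood at 1.33, 2.0 and 1.86 TPM in FED, 2.52, 2.52 and 2.37 in IF and 4.31, 3.72 and 3.08 in FMD livers, in 3 groups without overlap, and Cul4b ranged from 5.68 to 6.98 TPM in FED and from 9.84 to 12.5 in FMD livers. The log2 fold changes in FMD vs FED were 0.79 ± 0.14 for Cul7 (SE, adjusted p = 0.0014) and 0.74 ± 0.13 for Cul4b (SE, adjusted p = 0.0015), and 0.39 (adjusted p = 0.035) and 0.25 (adjusted p = 0.10) after scaling.

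Of 9 F-box proteins 4 were called higher in FMD vs FED livers (44.4%, against 35.5% of all tested genes), and 0 after scaling by limma, with 1 at an unadjusted p under 0.05, where 5.49% of the genes were called higher. The 4 were Fbxo34 (0.66), Fbxo45 (0.65), Fbxo9 (0.61) and Fbxo38 (0.59), all near the limit, and scaled they were at 0.16, 0.23, 0.07 and 0.10. Each call was lost without a single library. Fbxo34 dropped to 0.54 without FED replicate 2 and Fbxo45 to 0.54 without FMD replicate 1. Fbxo9 was at 0.56 without FED replicate 1 and 0.57 without FMD replicate 2, and Fbxo38 at 0.53, 0.56 and 0.48 without FED replicates 1 and 2 and FMD replicate 1. Fbxo32, the atrophy-related ligase subunit of muscle, stayed under the TPM limit with a mean TPM of 0.57 in FED livers, 0.64 in IF livers and 1.06 in FMD livers.

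Among 23 RING finger proteins, 8 were called higher in FMD vs FED livers (34.8%, against 35.5% of all tested genes) and 1 in IF vs FED (4.35% against 10.3%). After scaling 3 were called higher (13.0%) and 2 lower in FMD, against 5.49% and 5.64% of all tested genes. In IF 0 were called by limma, against 3.69% higher and 3.45% lower, with 3 at an unadjusted p under 0.05. Rnf145 (NCBI gene 74315), a ligase of the endoplasmic reticulum that acts in sterol metabolism, had the largest log2 fold change of all members in FMD livers. It measured 4.55, 3.89 and 6.06 TPM in FED, 7.17, 7.36 and 5.5 in IF and 19.2, 11.4 and 11.5 in FMD livers. FMD stood above both other groups, which overlapped. The log2 fold change was 1.34 ± 0.21 in FMD vs FED (SE, adjusted p = 0.00071) and 0.94 ± 0.21 in FMD vs IF (SE, adjusted p = 0.031), and 0.86 (adjusted p = 0.0043) and 0.69 (adjusted p = 0.043) after scaling. The difference between the diets was not called without FED replicate 1 (adjusted p = 0.055) or without IF replicates 1, 2 or 3 (0.096, 0.095 and 0.125). Scaled, it was lost without any 1 FED library, any 1 IF library or FMD replicate 1, with 0.56 in the last case.

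Rnf19a, a ligase of the RING-between-RING type, rose in both diets. Its values were 6.50, 7.75 and 8.18 TPM in FED, 14.05, 14.03 and 13.0 in IF and 21.5, 16.7 and 13.8 in FMD livers. The diet groups overlapped and both lay above FED. The log2 fold changes were 0.80 ± 0.16 in IF (SE, adjusted p = 0.0056) and 1.10 ± 0.16 in FMD (SE, adjusted p = 0.00043), or 0.55 and 0.59 after scaling, with only the latter called. That scaled call was lost without FED replicate 1 (0.51), FMD replicate 1 (0.54) or FMD replicate 2 (0.57).

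Rnf24 gave 1.07, 1.59 and 1.79 TPM in FED, 2.39, 2.24 and 2.21 in IF and 4.34, 2.96 and 5.80 in FMD livers, so that FMD lay above IF and IF above FED. It rose in FMD vs FED livers by 1.09 ± 0.19 on the log2 scale (SE, adjusted p = 0.0012), and by 0.70 after scaling (adjusted p = 0.031). The scaled call was lost without FED replicate 1 (0.58) or 2 (adjusted p = 0.062), or FMD replicate 4 (0.46). Rnf213, a very large ligase induced by interferon, and Rnf181 were called lower after scaling in FMD vs FED livers, at -0.73 (adjusted p = 0.0018) and -0.64 (adjusted p = 0.0091). On deposited TPM they were at -0.29 (adjusted p = 0.12) and -0.09 (adjusted p = 0.45). The scaled value of Rnf181 was -0.51 without FMD replicate 1, under the limit.

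Of 21 deubiquitinases, 6 were called higher in FMD vs FED livers (28.6%) and 2 in IF vs FED (9.52%), both below the shares of all tested genes of 35.5% and 10.3%. After scaling 1 was called higher in FMD (4.76%, against 5.49% of all tested genes). In IF 0 were called by limma, against 3.69% higher and 3.45% lower, with 4 at an unadjusted p under 0.05. Usp36, a nucleolar deubiquitinase, stood at 2.5, 3.09 and 3.6 TPM in FED, 4.40, 4.90 and 4.56 in IF and 9.06, 6.92 and 6.61 in FMD livers. The 3 groups did not overlap. Its log2 fold change was 1.07 ± 0.15 in FMD vs FED (SE, adjusted p = 0.00036), or 0.61 after scaling (adjusted p = 0.0039). The scaled value was 0.51 without FED replicate 1, under the limit. In FMD vs IF livers the value was 0.59 ± 0.15 (SE, adjusted p = 0.038), barely past the limit, and this call was lost without any 1 FED library, any 1 IF library or FMD replicate 1 (adjusted p of 0.053 to 0.138). After scaling it was 0.35 (adjusted p = 0.089).

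Usp28, which removes ubiquitin from regulators of growth and the DNA damage response, was higher in IF. It measured 1.55, 1.91 and 1.71 TPM in FED, 3.51, 3.44 and 3.23 in IF and 2.69, 2.69 and 3.46 in FMD livers. Both diet groups lay above FED, and FMD replicate 4 was within the IF range. Usp28 rose in IF vs FED livers by 0.69 ± 0.12 on the log2 scale (SE, adjusted p = 0.0034), and its 0.53 in FMD vs FED (adjusted p = 0.0042) was under the limit, with 0.15 after scaling. The difference between IF and FMD was not called. Usp40 rose in both, by 0.68 in IF and 0.80 in FMD, and the IF value dropped to 0.57 without FED replicate 1. Usp1, which acts in DNA repair (0.80), and Usp19, anchored in the endoplasmic reticulum (0.74), were called higher in FMD vs FED livers. After scaling none of these 4 was called, with values of 0.51 for Usp28 and 0.44 for Usp40 in IF and 0.32 for Usp40, 0.31 for Usp1 and 0.22 for Usp19 in FMD livers.

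**Figure D4:**
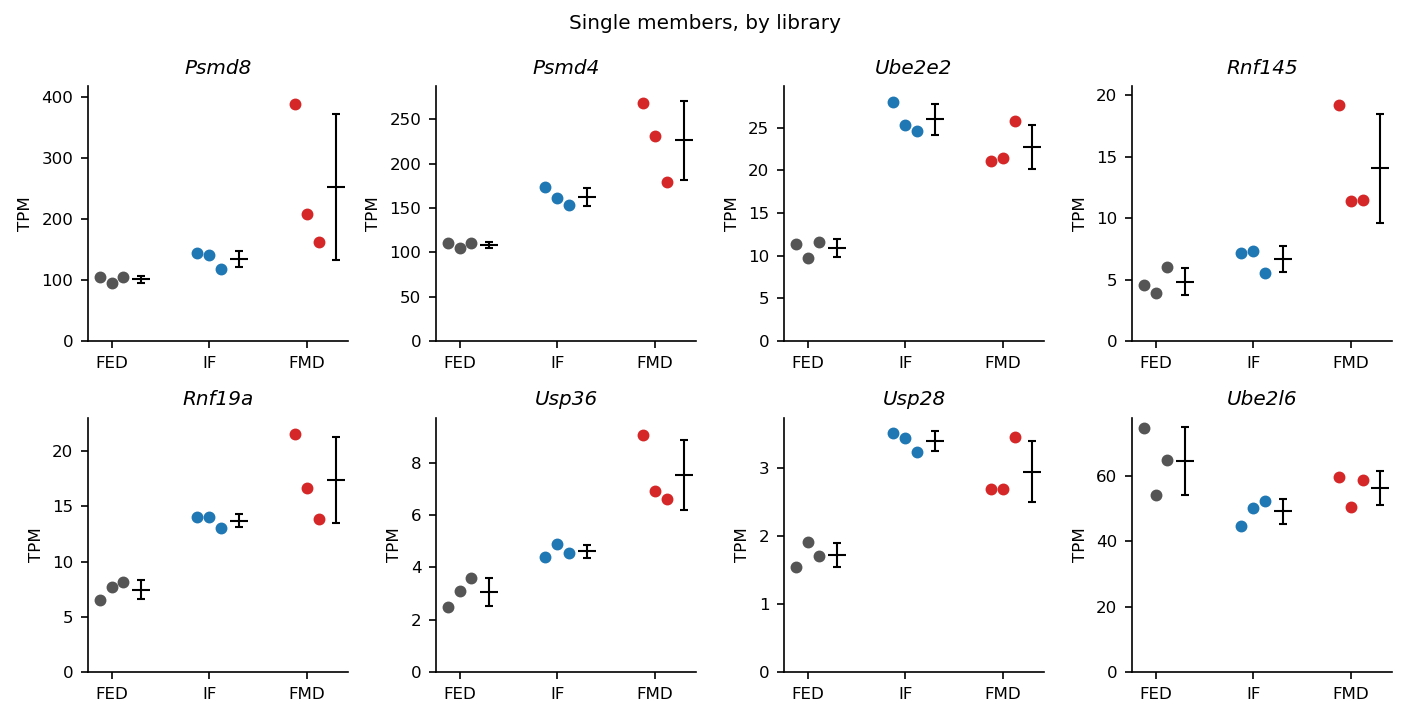
TPM by group for Psmd8, Psmd4, Ube2e2, Rnf145, Rnf19a, Usp36, Usp28 and Ube2l6. Points are libraries and the bars show mean ± SD (n = 3). FED has the lowest mean for the first 7, IF and FMD overlap for Ube2e2, Rnf19a and Usp28, all FMD libraries lie above the others for Psmd8, Psmd4, Rnf145 and Usp36, and FED has the highest mean for Ube2l6.

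Ubiquitin itself and its partners were read from lists outside the symbol rule. Of 11 ubiquitin and ubiquitin-like modifiers tested, 2 were called higher in IF (18.2%, against 10.3% of all tested genes) and 5 in FMD vs FED livers (45.5% against 35.5%). Their median log2 fold change in FMD was 0.48, as for all genes. After scaling 0 were called in IF by limma, against 3.69% of all tested genes higher and 3.45% lower, with 3 at an unadjusted p under 0.05. In FMD 1 was called higher (9.09%), against 5.49%. Ubb, a polyubiquitin gene, stood at 499, 508 and 462 TPM in FED, 824, 779 and 742 in IF and 1437, 1108 and 1008 in FMD livers. The groups did not overlap. Ubb rose by 0.67 ± 0.14 in IF (SE, adjusted p = 0.0078) and by 1.26 ± 0.14 in FMD on the log2 scale (SE, adjusted p = 0.00013), and after scaling it was called in FMD (0.70, adjusted p = 0.0012) and not in IF (0.39). Its repeats are shared with other ubiquitin genes, so its split from them is uncertain. Fau, which encodes a ubiquitin-like protein fused to a ribosomal protein, rose by 0.70 in IF and 0.89 in FMD, and Ubl3 by 0.79 in FMD. Neither was called after scaling, with 0.42 and 0.34 for Fau and 0.26 for Ubl3.

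Of 4 activating enzymes tested, 1 was called lower in IF, while in FMD vs FED livers 2 were higher and 1 was lower. The lower one was Uba7 in each. Of all tested genes, 1.59% were called lower in each comparison, and 35.5% were called higher in FMD. After scaling, Sae1, a subunit of the SUMO-activating enzyme, was called lower with Uba7 in IF (-0.70, adjusted p = 0.011), where 3.45% of the genes were. The list of 29 other ligases and adaptors also holds Cdc34, a conjugating enzyme. Of the 29, 1 was called higher in IF (Arih2, at 0.70), 9 in FMD vs FED, with Cdc34 among them, and 3 in FMD vs IF livers. The shares were 3.45%, 31.0% and 10.3%, against 10.3%, 35.5% and 4.67% of all tested genes. After scaling limma called 0 in each, with 7, 7 and 6 at an unadjusted p under 0.05. Of all tested genes, 3.69%, 5.49% and 1.11% were then called higher. Ube4b, which extends ubiquitin chains (0.92), and Keap1, the substrate adaptor of a Cul3 ligase (0.69), were among the 9. Scaled, Arih2 was at 0.44, Ube4b at 0.40 and Keap1 at 0.16. Of 11 other deubiquitinases 0 were called in IF by limma, with 3 at an unadjusted p under 0.05, and 3 in FMD vs FED livers (27.3%), and of 6 subunits of the COP9 signalosome, which regulates cullins, 0 and 2 (33.3%), with 2 of the 6 at an unadjusted p under 0.05 in IF. Cops5 is in both lists and is 1 of the genes called in FMD in each. After scaling limma called 0 of either list in IF or FMD vs FED. At an unadjusted p under 0.05 were 2 and 2 of the other deubiquitinases and 1 and 2 of the signalosome subunits. Of all tested genes, 3.69% and 5.49% were then called higher and 3.45% and 5.64% lower.

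Of 13 proteasome partners, shuttles and regulators, 1 was called higher in IF (Zfand5, a proteasome-binding zinc finger protein, at 0.65, 0.58 without FED replicate 1 and 0.40 scaled) and 9 in FMD vs FED livers. These are 7.69% and 69.2% of the list, against 10.3% and 35.5% of all tested genes. Nfe2l1, a transcription factor of proteasome genes, measured 27.9, 37.2 and 32.7 TPM in FED, 43.6, 42.8 and 49.8 in IF and 60.5, 77.3 and 60.4 in FMD livers. The 3 groups did not overlap. Nfe2l1 rose in FMD vs FED livers by 0.998 ± 0.144 on the log2 scale (SE, adjusted p = 0.00048), with 0.46 after scaling (adjusted p = 0.086). Ufd1, which delivers ubiquitylated proteins to the proteasome (0.93), and Ecpas, a proteasome adaptor (0.85), were also called higher, with scaled values of 0.40 and 0.35. After scaling 1 of the 13 was called higher in FMD vs FED livers (7.69%, against 5.49% of all tested genes). This was Zfand2a, an arsenite-inducible partner that was chosen after its values were seen. Its values were 4.03, 3.97 and 4.67 TPM in FED, 8.27, 7.42 and 6.92 in IF and 24.2, 15.4 and 7.01 in FMD livers, and FMD replicate 4 lay within the IF range. The scaled log2 fold change in FMD vs FED was 1.03 (adjusted p = 0.020), lost without FED replicate 1 or 2 or FMD replicate 2 (adjusted p of 0.068, 0.060 and 0.060).

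In the direct comparison of the diets, members past only 1 of the limits included Psmd8 (0.81, adjusted p = 0.070), Ube2s, which extends ubiquitin chains in the cell cycle (0.64, adjusted p = 0.055), and Ube2f, the E2 enzyme for NEDD8 (0.51, adjusted p = 0.034). Scaled, these were at 0.54, 0.38 and 0.25, at adjusted p of 0.117, 0.187 and 0.124. Without FMD replicate 4, 12 members were called higher in FMD vs IF livers, Psmd8, Psma7, Ube2f and Ube2s among them, and 1 lower. Without FED replicate 1 or any 1 IF library 0 were called by limma. No share over all tested genes is given for these fits, so these counts have no background beside them. The spread within FMD livers was wider, with a median coefficient of variation over the members of 15.7% against 6.65% in FED and 6.87% in IF livers.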

How the data were processed

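Liver RNA of 3 FED, 3 IF and 3 FMD mice was sequenced by the authors as mRNA libraries, and they deposited transcript abundances normalised to length and library total (TPM) for each library, which were used as deposited. The submitters' processing notes name mm39 and DESeq2. The aligner, the annotation and the handling of reads that match several genes are not given in the sources used here. TPM keep no depth, so no counting interval is given. The table lists 5608 genes and is used as a part of each library.

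Samples were grouped by their labels, and the study's methods give 3 mice per group. Members were taken by symbol and a mean TPM of at least 1. The members and lists were chosen with earlier results of these data known. The 4665 genes at or above this limit were fitted as log2(TPM + 1) with limma 3.58.1 in R 4.3.3 (all 9 libraries, eBayes with a trend, Benjamini-Hochberg adjustment over all genes tested). Calls were made at an adjusted p under 0.05 and a fold change over 1.5, as in the study's methods. Roles and pathway lists were described by counts and medians. Named members are the 4 with the smallest adjusted p per role and comparison, the 4 largest rises and falls per comparison, preset subunits and enzymes, the 3 on each side of the TPM limit, and the 3 smallest adjusted p per pathway list. Alternatives were a pseudocount of 0.1, no filter or a mean TPM of at least 5, scaling, quantile normalization, separate fits, no trend, a replicate block, other thresholds and each library left out, and scaled fits with a library left out or a block were added after seeing the data. Promoters came from RefSeq (GRCm38.p6) and were searched on both strands. Figures were drawn with matplotlib 3.10.9, and python 3.11.15 with pandas 2.3.3 was used for tables.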

Additional observations from a re-analysis of the deposited data

Results flagged for a closer look

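The direct test between the diets was past the limits for 5 genes. In FMD vs IF livers, Rnf145 was higher by a log2 fold change of 0.94, Usp36 by 0.59, and, from the list of other ligases, Arih1 by 0.59, Syvn1 by 0.60 and Ube4b by 0.63 (limma, adjusted p from 0.031 to 0.040). All 3 FMD libraries were above all 3 IF libraries for each of them. After scaling, Rnf145 was called (adjusted p = 0.043), and the adjusted p was 0.089 for Usp36, 0.074 for Arih1, 0.11 for Syvn1 and 0.15 for Ube4b. Arih1, Syvn1 and Ube4b were not called without FMD replicate 1 (0.45, 0.44 and 0.60, the last at an adjusted p of 0.063). They were not called without any 1 FED or any 1 IF library either, and Arih1 and Ube4b not without FMD replicate 2 (adjusted p of 0.053 and 0.063).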

How the results depend on the processing

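Of 79 gene values named, scaling kept the direction and the call of 28, ended 43 calls, added 7 and reversed 1, and quantile normalization gave 27, 44, 7 and 1. A pseudocount of 0.1, no trend, no filter and a filter at 5 left 78 of 79, 79 of 79, 74 of 79 and 70 of 71 unchanged in direction and call, and separate fits per comparison ended 6 calls. Members called higher in IF vs FED (4 as reported) were 1 after scaling, 1 after quantile normalization, 1 with scaling and the block, and 25 without a fold change limit. The 2 called lower were 0 at an adjusted p under 0.01. In FMD vs FED the 41 higher were 5, 4, 4 and 77 under the same alternatives, and the 1 lower was 6, 6, 7 and 2, with 0 at an adjusted p under 0.01. The 2 higher in FMD vs IF were 1 without a filter, 1 after scaling, 1 after quantile normalization, 0 with separate fits, 8 without a fold change limit and 0 at an adjusted p under 0.01. The 0 lower were 1 after quantile normalization and 2 with scaling and the block. With each library left out, the counts ran from 3 to 5 (higher) and 0 to 2 (lower) in IF vs FED, from 25 to 51 and 0 to 2 in FMD vs FED, and from 0 to 12 and 0 to 1 in FMD vs IF, and after scaling from 1 to 2 and 2 to 3, from 1 to 5 and 5 to 7, and from 0 to 2 and 0 to 2. The cause was not tested. Except for scaling and for FMD vs FED without FMD replicate 1, the member counts above have no share over all tested genes beside them. Scaling divides out a shift common to most genes.

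Between groups, the libraries with the same replicate number had correlations of their deviations between 0.0035 and 0.18. Those with different numbers had correlations between -0.20 and 0.21, and not every library correlated best with its own number. The labels do not say whether mice with the same number belong together, and these correlations cannot decide it. The replicate block gave 0 members lower in FMD vs FED and 11 higher and 1 lower in FMD vs IF. No share over all tested genes is given for these counts. The block kept 72 of 79 gene values unchanged in direction and call.

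Psme1 in FMD vs FED reversed from 0.14 to -0.41 after scaling, to -0.33 after quantile normalization, to -0.46 with scaling and the block, and and after scaling to -0.42, -0.418 and -0.385 without FED replicates 1, 2 and 3, to between -0.408 and -0.406 without an IF library, and to -0.265, -0.456 and -0.502 without FMD replicates 1, 2 and 4. Psme4 reversed to -0.011 with scaling and the block and to -0.003 after scaling without FMD replicate 4, Psmg4 to -0.146 and -0.022 after scaling without FED replicate 2 and FMD replicate 1, and Fbxo9 to -0.012 after scaling without FMD replicate 2. The 3 libraries per group and the unknown depth limit the precision of genes near 1 TPM.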

Other observations

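Markers of other liver cells that the table holds were few. Dcn, of the stellate cell list, ranged from 64.1 to 90.1 TPM in FED, from 120 to 156 in IF and from 106 to 213 in FMD livers. Krt19, of the cholangiocyte list, ranged from 0.76 to 1.78, from 1.02 to 2.06 and from 1.22 to 4.07 TPM, and Top2a, of the cycling cell list, was at most 0.32 TPM in any library. The endothelial and erythroid lists have 0 of 5 genes each in the table.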
